A study of Mus musculus with 17 samples.

Results

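Leukocyte identity genes are genes whose products mark or run white blood cells. A set of 37 such genes was followed through chromatin accessibility maps of 17 mouse kidneys, out of 55413 genes in the annotation. The genes were taken as a named list and sorted by lineage: 13 are shared by most leukocytes (pan-leukocyte), 14 are myeloid, 6 belong to T cells, 3 to B cells, and 1, Btla, to both B and T cells. Each library was made from 20000 cells of the kidney of 1 male mouse by ATAC-seq, in which the Tn5 transposase cuts and tags the DNA that it can reach, so that reads pile up at open chromatin. The Ctrl group held wild-type C57BL/6 mice (n = 5). The Case group held db/db mice (BKS.Cg-Dock7m +/+ Leprdb/J, n = 6), which lack a working leptin receptor, are of BKS stock and become diabetic. The Dapa group held db/db mice of the same strain (n = 6) that received dapagliflozin, an inhibitor of the renal glucose transporter SGLT2, at 1 mg/kg/day by gavage for 6 weeks from 8 weeks of age, while the other mice received saline. Wild-type and db/db mice differ at once in genotype, in diabetes and in strain, and these cannot be told apart.

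Leukocytes carry a shared set of signalling and cytoskeletal proteins, such as the phosphatase CD45 (Ptprc), the actin bundler L-plastin (Lcp1) and the GTPase Rac2. Myeloid cells, which include the macrophages of the kidney, are set up by the transcription factor PU.1 (Spi1), while T and B cells are defined by the CD3 complex and by the CD79 pair that signals for their antigen receptors. A gene that is used in a cell usually has an open promoter in that cell, and PU.1 and RUNX factors bind many promoters and enhancers of leukocyte genes. The kidney is mostly epithelium, so such genes are sampled here through whichever leukocytes the 20000 cells held. In bulk material of this kind, fewer leukocytes and less open chromatin per leukocyte cannot be told apart.

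The data were lists of peak summits, the single base at which a peak was highest, called separately for each mouse. A gene was scored as present in a library when a summit lay within 1 kb of any of its transcription starts, or, in the wider gene window, anywhere from 10 kb upstream of the gene to its end. The lists differed in length, from 37402 to 56659 summits in Ctrl, up to 51292 in Case, whose shortest list was the shortest of all, and from 32846 to 49442 in Dapa. Presence was therefore read in the highest-scoring summits of every library, as many as the shortest list holds (equal-length lists). The strength of a summit was its rank percentile, where 100 is the highest score of its own list, because scores cannot be compared between lists of unknown depth. Percentiles were taken in the complete lists and depend on their length, since the same rank gives a higher percentile in a longer list, and Case lists (median 34739 summits) were shorter than Ctrl lists (median 43012). As a check of the labelled tissue, 11 to 17 of 23 kidney epithelium genes and 17 to 20 of 20 housekeeping genes had a summit near a start in each library. The gene of CD45, Ptprc, had no summit near a start in any library.

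Promoters of 25 of the 37 genes were matched in the RefSeq promoter table (build GRCm38.p6, 250 bases before to 50 after a start), and 8 of them are shown because they carry the contrasts described further on. Ptpn6 had a summit near a start in every kidney, Lcp1 in most, Ikzf1 mainly in Ctrl, and the other 5 in 1 to 4 libraries. Capitals mark the letters GAGGAA, the core of a PU.1-type ETS site, or TGTGGT, the core of a RUNX site, on either strand. All are printed on the strand of the gene.
Ptpn6 (chr6:124738660-124738959, minus strand): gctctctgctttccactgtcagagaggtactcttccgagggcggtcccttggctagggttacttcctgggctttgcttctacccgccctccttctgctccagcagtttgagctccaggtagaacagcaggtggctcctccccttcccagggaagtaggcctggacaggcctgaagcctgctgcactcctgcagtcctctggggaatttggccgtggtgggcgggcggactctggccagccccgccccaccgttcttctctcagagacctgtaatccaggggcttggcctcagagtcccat
Lcp1 (chr14:75130873-75131172, plus strand): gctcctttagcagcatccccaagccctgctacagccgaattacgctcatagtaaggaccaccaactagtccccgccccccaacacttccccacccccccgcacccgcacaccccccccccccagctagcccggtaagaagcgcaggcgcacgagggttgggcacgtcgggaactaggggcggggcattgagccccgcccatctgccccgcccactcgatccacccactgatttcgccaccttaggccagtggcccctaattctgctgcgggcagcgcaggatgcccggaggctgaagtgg
Ikzf1 (chr11:11685675-11685974, plus strand): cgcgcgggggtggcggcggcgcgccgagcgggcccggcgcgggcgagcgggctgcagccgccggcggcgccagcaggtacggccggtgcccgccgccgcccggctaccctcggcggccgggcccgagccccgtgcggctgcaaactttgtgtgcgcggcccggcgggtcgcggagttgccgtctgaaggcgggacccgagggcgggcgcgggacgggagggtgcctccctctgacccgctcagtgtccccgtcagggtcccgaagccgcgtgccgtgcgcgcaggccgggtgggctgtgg
Laptm5 (chr4:130913066-130913365, plus strand): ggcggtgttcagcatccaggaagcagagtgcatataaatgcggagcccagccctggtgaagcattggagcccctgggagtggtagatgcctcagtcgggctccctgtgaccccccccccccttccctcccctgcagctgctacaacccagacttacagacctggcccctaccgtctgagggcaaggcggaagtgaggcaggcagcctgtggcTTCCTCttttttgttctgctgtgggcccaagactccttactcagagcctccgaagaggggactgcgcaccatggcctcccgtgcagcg
Cd53 (chr3:106790100-106790399, minus strand): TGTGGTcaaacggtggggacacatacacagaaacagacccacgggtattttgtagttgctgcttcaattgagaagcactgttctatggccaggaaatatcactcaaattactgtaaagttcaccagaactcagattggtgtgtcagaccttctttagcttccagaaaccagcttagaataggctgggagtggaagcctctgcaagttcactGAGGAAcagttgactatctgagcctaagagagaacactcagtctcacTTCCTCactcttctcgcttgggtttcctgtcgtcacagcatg
Cd68 (chr11:69666121-69666420, minus strand): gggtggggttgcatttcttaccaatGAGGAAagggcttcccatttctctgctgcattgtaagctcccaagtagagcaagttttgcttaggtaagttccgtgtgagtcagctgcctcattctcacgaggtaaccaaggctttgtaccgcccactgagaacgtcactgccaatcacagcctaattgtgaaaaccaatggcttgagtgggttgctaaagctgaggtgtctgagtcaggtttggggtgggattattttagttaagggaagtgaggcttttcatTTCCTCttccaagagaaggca
Fcer1g (chr1:171234300-171234599, minus strand): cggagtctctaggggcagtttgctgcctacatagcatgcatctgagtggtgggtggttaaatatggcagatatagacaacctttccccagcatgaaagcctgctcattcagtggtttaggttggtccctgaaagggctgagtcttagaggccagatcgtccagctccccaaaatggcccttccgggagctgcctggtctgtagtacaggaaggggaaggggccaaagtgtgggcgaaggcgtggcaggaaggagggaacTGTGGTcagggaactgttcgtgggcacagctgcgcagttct
Csf2rb2 (chr15:78305672-78305971, minus strand): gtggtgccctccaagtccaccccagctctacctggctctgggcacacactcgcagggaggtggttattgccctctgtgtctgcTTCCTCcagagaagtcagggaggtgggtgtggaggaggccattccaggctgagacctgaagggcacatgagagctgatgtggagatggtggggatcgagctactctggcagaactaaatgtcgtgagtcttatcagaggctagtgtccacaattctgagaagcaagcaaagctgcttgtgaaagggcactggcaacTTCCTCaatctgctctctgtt

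Of the printed promoters, those of Ptpn6, Lcp1 and Ikzf1 held neither motif and each of the other 5 held at least 1. These 8 were chosen, and the motifs did not sort the genes in general: both matched promoters of Coro1a held neither, and 1 of the 2 of Lck held both. The Ikzf1 promoter had 52 CpG dinucleotides and a GC content of 81.3%, while Cd68 had 4 CpG and a GC content of 47.7%. Over all 31 matched promoters of the 25 genes, GAGGAA was found in 16 (51.6%), against 28.3% of the 32851 promoters in the table. TGTGGT was found in 9 (29.0%), against 16.8% of all promoters. The longer letters CCGGAAGT, common in housekeeping promoters, were found in 1 (3.23%, in Cd48), against 3.89%. The median number of CpG was 6 in the leukocyte promoters and 7 in all promoters, where the upper quartile was 20 against 8. A match describes the letters and does not show that a factor bound there. The best-ranked summit of each of the 8 genes lay inside the printed stretch except for Ikzf1, whose summit lay 146 bases past its end, and Csf2rb2, at 6 bases past its end.

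Most leukocyte genes had no called summit near a start in most kidneys, which at unknown depth does not show that their promoters were closed. Among the 37 genes, 24 had a summit near a start in at least 1 equal-length list and 13 had none: Ptprc, Cd52, Itgb2, Itgam, C1qa, C1qb, C1qc, Adgre1, Cd4, Runx3, Cd79a, Cd79b and Btla. With all summits, 1 of these 13, Runx3, gained a summit in Dapa 8. Ptpn6 alone had one in all 17 libraries. The number of leukocyte genes with a summit near a start was 1, 3, 4, 5 and 4 in Ctrl 1 to Ctrl 5. It was 2, 2, 17, 4, 4 and 2 in Case 1 to Case 6, and 5, 9, 3, 4, 4 and 2 in Dapa 7 to Dapa 12. Case 3 stood far above all other mice and Dapa 8 came next, while the other 15 libraries lay between 1 and 5. Of all 55413 genes, 13138 had a summit near a start in Case 3 and 13916 in Dapa 8, against 12560 to 14126 in the other 15. Of 21938 protein-coding genes, it was 10455 and 11179, against 10016 to 11416.

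**Figure D1:**
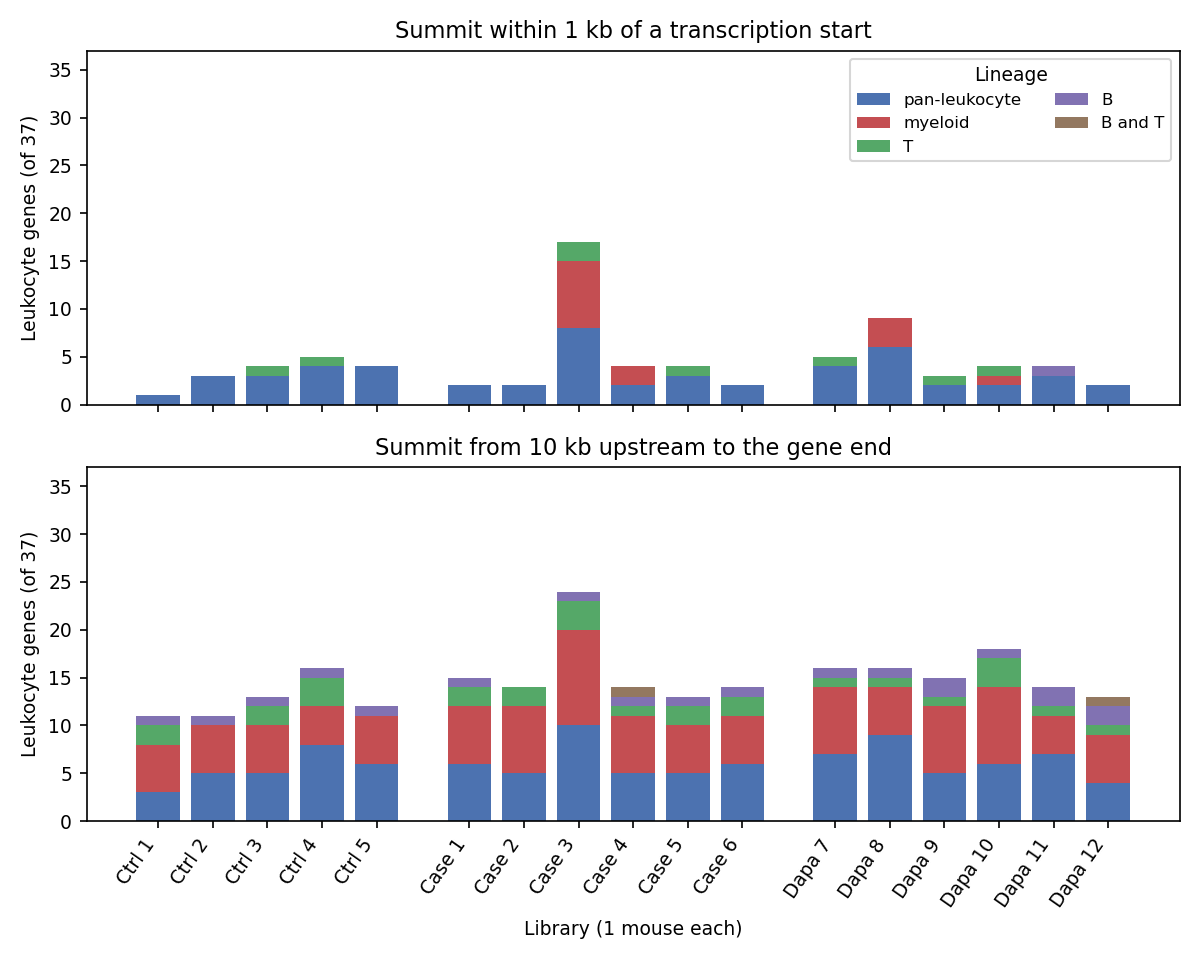
Number of the 37 leukocyte genes with a summit near a start (top) or in the gene window (bottom) in each library, in equal-length lists, stacked by lineage. Case 3 reaches 17 genes near a start and 24 in the gene window, and Dapa 8 reaches 9 and 16.

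The lists of these 2 libraries differed in length. Case 3 had 29845 summits, the second shortest list, and Dapa 8 had 47564, the fourth longest. Of the 24 genes with a summit near a start, 9 had it only in Case 3, in Dapa 8 or in both: Cd53, Vav1, Cd68, Tyrobp, Fcer1g, Csf1r, Csf2rb, Csf2rb2 and Cd3d. A further 6 genes had one in both libraries and also elsewhere: Laptm5, Lcp1, Coro1a, Rac2, Ptpn6 and Spi1. For Lcp1 and Coro1a the summits of Case 3 and Dapa 8 lay at different starts of the gene. With all summits, the counts were 17 in Case 3 and 14 in Dapa 8, and 2 to 8 in the others. The summits were of middling rank, with a median percentile of 49.4 over the 17 genes of Case 3 and of 49.1 over the 14 of Dapa 8.

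Other leukocyte genes, those shared by most leukocytes above all, also had more summits in the same libraries. Of 52 leukocyte genes outside the list, 13 had a summit near a start in Case 3 and 10 in Dapa 8, against 2 to 8 in the other 15. The 14 of these that are shared by most leukocytes gave 7 in Case 3 and 4 in Dapa 8, against 0 to 2, and the 14 myeloid ones gave 4 and 2, against 1 to 2. Near a start the lymphoid ones did not follow, since the 14 T cell genes gave 1 in Case 3 and 3 in Dapa 8, against 0 to 3, and the 10 B cell genes gave 1 in both, against 0 to 2. In the gene window those T cell genes were highest in Case 3 in equal-length lists only, at 7 against 2 to 6 in the other 15. With all summits Case 5 and Dapa 11 had 8 each, against 7 in Case 3. Without summits near another gene's start, Case 3 had 4 in equal-length lists, against 1 to 5 in the other 15. Kidney epithelium genes were at their lowest in Case 3, with 11 of 23 near a start against 13 to 17 in the others, and Dapa 8 had 14. Kidney endothelium genes were at their highest in Case 3 in the gene window, with 8 of 12, against 2 to 7 in the other 15 and 6 in Dapa 8. This held in equal-length lists only, since with all summits Ctrl 4 had 10 and Dapa 10 had 9, against 8 in Case 3. Near a start Case 3 had 1, against 0 to 2. With all summits Dapa 8 was highest near a start, at 3 against 0 to 2 in the other 15. Adipocyte genes near a start were at 2 of 8 in both libraries, against 2 to 3, but with all summits Dapa 8 was highest, at 4 against 2 to 3. Erythroid genes near a start were at 0 of 8 in both, against 0 to 1. Adrenal cortex genes near a start were at 1 of 8 in Case 3 and 0 in Dapa 8, against 0 to 1. The part of any of these in the leukocyte counts was not tested.

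Sequence at summits over the whole genome gave a readout that used no gene list. GAGGAA lay within 100 bases of 17.3% of the 504934 summits in the 17 equal-length lists. The share was 19.0% in Case 3 and 17.8% in Dapa 8, the highest and the second highest, against 16.6% to 17.6% in the other 15. More than 1 kb from any start the shares were 19.7% and 18.5%, against 16.8% to 18.1%. Within 1 kb of a start Case 3 was again highest at 17.9%, but Dapa 8, at 16.97%, lay inside the range of the others, 16.4% to 17.4%. TGTGGT lay near 12.6% of summits in Case 3 and 12.2% in Dapa 8, against 10.9% to 12.1%, and near 11.5% of all summits. Within 1 kb of a start it lay near 8.58% in Case 3, the highest share, and near 7.92% in Dapa 8, which ranked number 11 of 17, against 7.42% to 8.30%. CCGGAAGT did not follow the pattern, since Case 3 ranked number 14 of 17 for it and Dapa 8 number 2, and it was found near 2.60% of all summits. No test was made of these shares, which come from 1 library each.

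**Figure D2:**
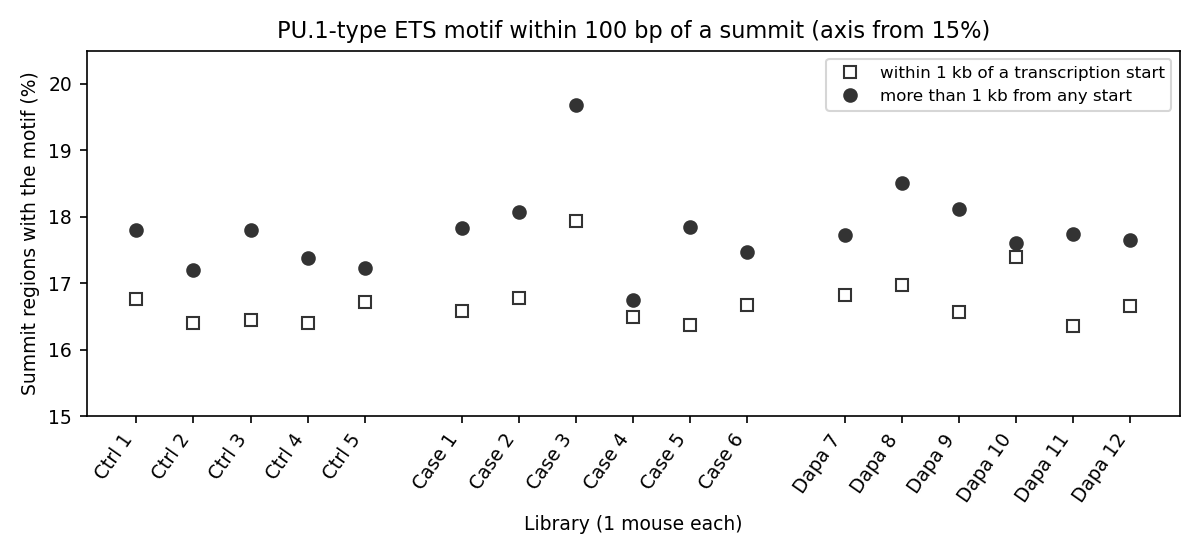
Percentage of summits with GAGGAA within 100 bases on either strand, in the equal-length list of each library, for summits within 1 kb of a start (squares) and farther away (dots). The axis starts at 15%. Far from starts, Case 3 is highest at 19.7% and Dapa 8 second at 18.5%.

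Among pan-leukocyte genes, Ptpn6, which encodes the phosphatase SHP-1, had a summit near a start in every kidney. Its percentile was 93.0, 96.9, 96.7, 91.0 and 81.4 in Ctrl, 96.8, 89.5, 82.7, 95.9, 97.8 and 75.5 in Case, and 98.8, 94.8, 91.6, 88.7, 84.9 and 95.9 in Dapa. The groups overlapped throughout. The Ptpn6 summit found in every kidney lay at the most upstream start of the gene. Regions near its other starts were seen in at most 3 libraries each. Which cells gave the constant summit was not tested. Lcp1 had a summit near a start in 13 equal-length lists and in 14 complete ones. Its percentile was 26.4, 67.4, 64.2, 79.5 and 66.4 in Ctrl, 78.0, 38.7, 24.9, 27.7, 73.5 and 80.5 in Case, and 62.0, 63.1 and 72.1 in Dapa 7, 8 and 11, with none in Dapa 9, 10 and 12, and the summit of Ctrl 1 lay outside its equal-length list. Most of these summits lay within 1 kb of a start of Lrrc63 as well, and in the gene window only 4 libraries had an Lcp1 summit away from every other gene's start.

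Ikzf1, which encodes the lymphoid transcription factor Ikaros, had a summit near a start in Ctrl and Dapa mice but in no Case mouse. Near a start its percentile was 29.5, 54.7, 45.6, 43.7 and 53.8 in Ctrl 1 to Ctrl 5. Dapa 7, 8 and 9 had one at 8.86, 47.5 and 24.2. In the equal-length lists those of Ctrl 1 and Dapa 7 dropped out, which left 4 Ctrl and 2 Dapa mice. Of the Case lists, none of which held one, those of Case 2, Case 3 and Case 4 were the shortest of all 17. That of Case 5, with 51292 summits, was the second longest. All Ikzf1 summits near a start lay within 1 kb of a start of Gm11999 as well. Those seen in 3 or more libraries fell at 2 nearby places, 1 of them in Ctrl 1, 2, 3 and 5 and Dapa 7, the other in Ctrl 1 and 4 and Dapa 8 and 9.

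Coro1a, Laptm5 and Rac2, which encode the actin regulator coronin 1A, a lysosomal membrane protein and a GTPase of the oxidative burst, were scattered over the groups. Coro1a had a summit near a start in Ctrl 4 (percentile 56.7), in Case 3 (57.8) and Case 5 (50.6), and in Dapa 7 (38.2), 8 (77.9), 10 (55.9) and 11 (54.1). Laptm5 had one in Case 3 (65.2) and in Dapa 7 (41.9), 8 (59.3) and 11 (1.75). Rac2 had one in Ctrl 2 (31.1), Case 3 (65.7), Case 5 (14.5), Dapa 7 (23.1), Dapa 8 (48.8) and Dapa 12 (28.9). The summits of Coro1a in Dapa 7, of Laptm5 in Dapa 11 and of Rac2 in Ctrl 2, Case 5 and Dapa 7 were in the complete lists only. Case 3 or Dapa 8 held the highest percentile of each of these 3 genes. Cd37 had a summit in Case 3 and Dapa 7, and in the complete lists also in Ctrl 2 and Dapa 8, Cd53 and Vav1 in Case 3 alone, and Cd48 in Ctrl 5 alone.

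**Figure D3:**
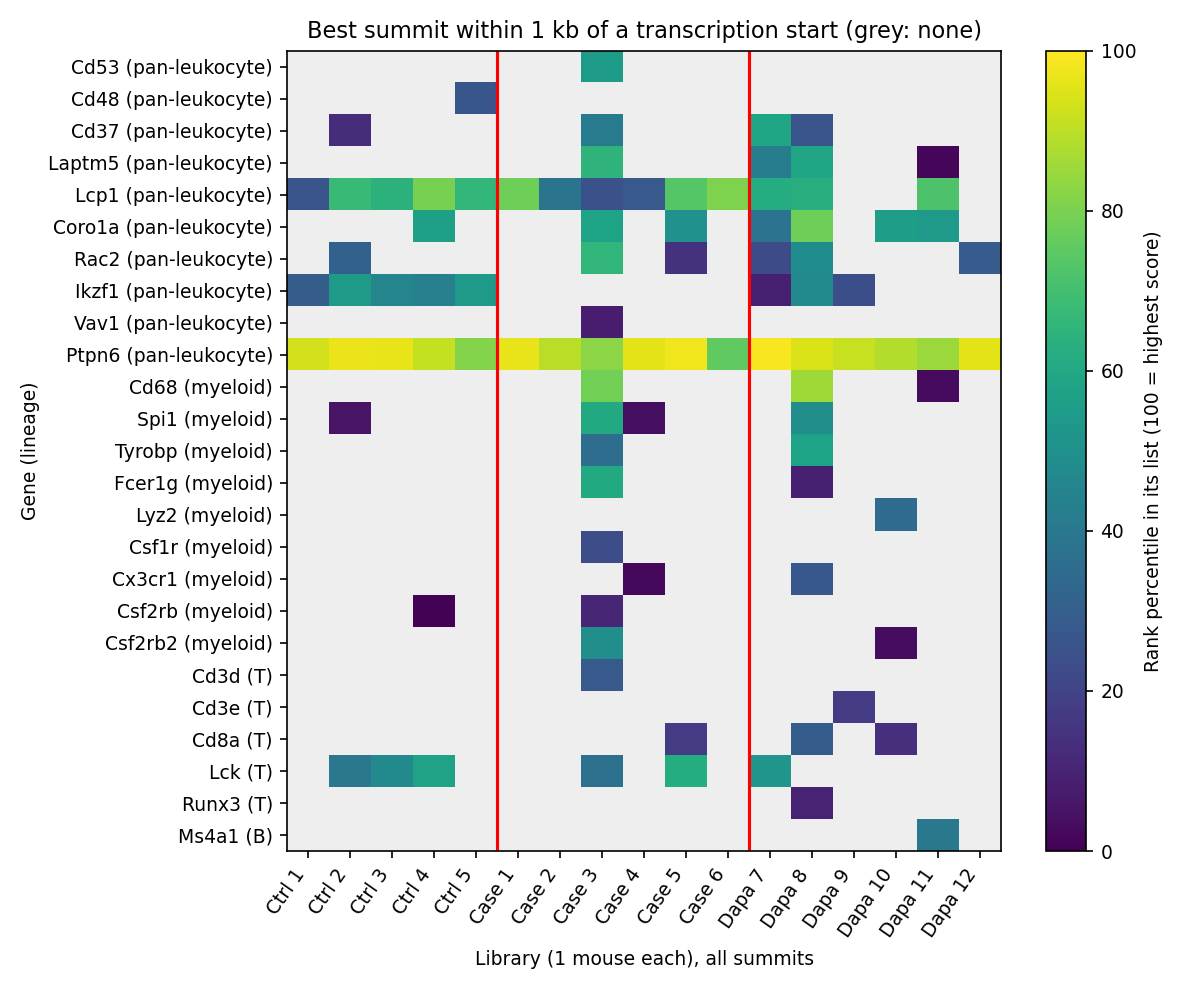
Rank percentile of the highest summit within 1 kb of a transcription start, for the 25 genes with 1 in any complete list (rows) in each of 17 libraries (columns, red lines between Ctrl, Case and Dapa). Grey is no summit. Ptpn6 is filled across, Ikzf1 is filled in Ctrl and empty in Case, and Case 3 and Dapa 8 show the fullest columns.

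No myeloid gene had a summit near a start in the equal-length lists of the 5 Ctrl kidneys, while the complete lists held a low one for Spi1 in Ctrl 2 and for Csf2rb in Ctrl 4. The count of 14 myeloid genes with a summit near a start was 7 in Case 3, 3 in Dapa 8, 2 in Case 4 and 1 in Dapa 10, and 0 in the other 13 libraries. Spi1, the gene of PU.1, had a summit in Case 3 (percentile 60.6), Dapa 8 (49.5), Case 4 (3.89) and, in the complete list only, Ctrl 2 (5.38). Cd68, a lysosomal protein of macrophages, had one in Case 3 (78.6), Dapa 8 (85.7) and, in the complete list only, Dapa 11 (2.79). Both genes thus had their highest percentiles in the same pair of libraries, Spi1 in the middle of the list and Cd68 in its upper part, and elsewhere had a summit near the bottom of the list or none. Tyrobp, the adaptor DAP12, had one in Case 3 (35.7) and Dapa 8 (58.2) only.

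Each remaining myeloid gene was seen in at most 2 libraries near a start. Fcer1g, the Fc receptor gamma chain, had a summit in Case 3 and, low in the complete list, in Dapa 8. Csf1r, the receptor that keeps macrophages alive, had one in Case 3. Csf2rb and its neighbour Csf2rb2 had one in Case 3, with Csf2rb also at percentile 0.4 in Ctrl 4 and Csf2rb2, low in the complete list, in Dapa 10. Cx3cr1, the fractalkine receptor, had one in Case 4 and, in the complete list, in Dapa 8, and Lyz2, lysozyme, had one in Dapa 10. Itgam, Adgre1 and the 3 C1q genes had none.

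T cell genes had few summits near a start, spread over more libraries than those of myeloid genes, and B cell genes had almost none. Lck, the kinase of the T cell receptor, had a summit near a start in Ctrl 2 (percentile 39.7, in the complete list only), Ctrl 3 (47.9), Ctrl 4 (57.5), Case 3 (37.0), Case 5 (61.8) and Dapa 7 (52.1), and thus in all 3 groups. Cd3d had one in Case 3, Cd3e in Dapa 9, and Cd8a in Dapa 10, and in the complete lists also in Case 5 and Dapa 8. Cd3d and Cd3e lie side by side on chromosome 9. Case 3 had 2 T cell genes near a start and Dapa 8 had 0, against 0 to 1 in the other 15. Of the 3 B cell genes, only Ms4a1, which encodes CD20, had a summit near a start, in Dapa 11 at percentile 39.9. Btla, an inhibitory receptor of lymphocytes, had none.

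The wider gene window held more summits, many of them shared with neighbours. In the equal-length lists, 36 genes had a summit in at least 1 library, and C1qb was the exception. Counts ran from 11 to 16 in Ctrl, from 13 to 24 in Case and from 13 to 18 in Dapa, with 24 in Case 3. With all summits Case 3 did not stand out. Case 5 had 26, and Case 3, Dapa 7 and Dapa 8 had 24 each, against 13 to 20 in the others. Of all 55413 genes, the equal-length lists gave 20512 in Case 3 and 20998 in Dapa 8, against 19840 to 20803 in the other 15. Present in all 17 libraries were 6 of the 37 genes: Vav1, Ptpn6, Cd68, Spi1, Csf1r and Cx3cr1. For Cd68 the constant summit lay upstream at -5765 bases from its start, within 1 kb of a start of Eif4a1, and without summits near another gene's start Cd68 was present in 3 libraries. The constant summit of Vav1 lay upstream at -3512 bases, with no other start within 1 kb. Cx3cr1 had 3 constant summits in introns of its longest annotated form, 2 of them near starts of Gorasp1, Ttc21a or Csrnp1.

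The summits of the 37 windows fell into 229 regions, of which 137 (59.8%) were seen in 1 library. By place, 118 lay in introns, 45 upstream, 44 within 1 kb of a start of the gene and 22 in exons. Only 7 regions were seen in all 17 libraries, and 4 of these lay within 1 kb of another gene's start. None of the 7 belonged to Spi1 or Csf1r. The most widespread region of each of these 2 genes lay in an exon and was seen in 16 libraries, with Case 3 missing. Leaving out all summits near another gene's start removed every library of Cd3e, whose window holds a start of Gm48719. The same step took Cd79a from 16 libraries, most of them near a start of Rps19, to 9. With that step the number of genes present in the equal-length lists was 24 in Case 3, 13 in Dapa 8 and 6 to 15 in the other 15. In the complete lists it was 24 in Case 3, 21 in Dapa 8 and 7 to 23 in the others.

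**Figure D4:**
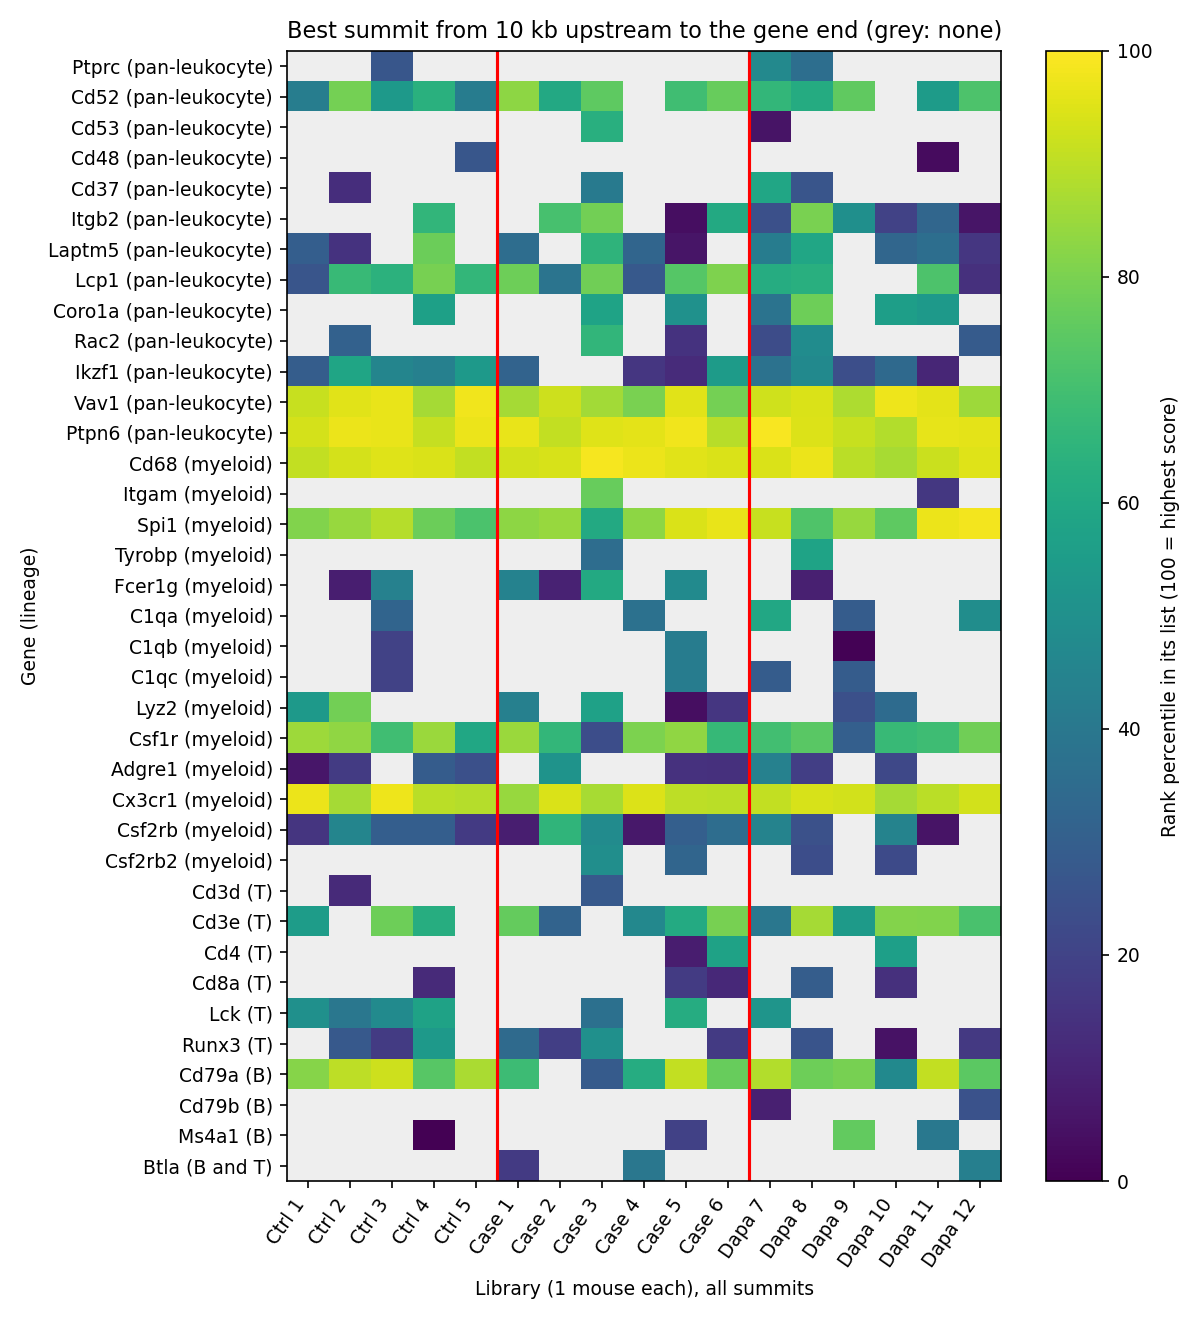
Rank percentile of the highest summit from 10 kb upstream of each of the 37 genes to its end (rows) in each library (columns, red lines between groups). Grey is no summit. Vav1, Ptpn6, Cd68, Spi1, Csf1r and Cx3cr1 are filled across all 17 libraries, and most other rows are broken.

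Ptprc had a window summit in Ctrl 3 (percentile 26.9), Dapa 7 (47.2) and Dapa 8 (36.2), and in none of the Case mice, Case 3 included. Fcer1g had one in Ctrl 2 (8.47) and Ctrl 3 (43.9), in Case 1 (44.1), 2 (9.61), 3 (60.8) and 5 (47.8), and in Dapa 8 (8.87). Itgb2, the integrin chain CD18, had one in Ctrl 4 alone (65.7), in 4 of 6 Case mice (3.80 to 78.6) and in all 6 Dapa mice (5.78 to 79.8). These 3 genes thus had a different order of the groups from each other. C1qa had a window summit in Ctrl 3 (32.4), Case 4 (37.1) and Dapa 7 (60.0), 9 (28.9) and 12 (49.2). C1qa, C1qb and C1qc are neighbours on chromosome 4 whose windows overlap, so 1 summit can count for several of them.

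The other genes varied without a clear split between groups in the complete lists. Cd52, a short surface glycoprotein, had a window summit in 5 mice of each group. Adgre1, the macrophage marker F4/80, had one in 4 Ctrl mice and in 3 mice of either db/db group, never near a start. Lyz2 had one in 2 Ctrl, 4 Case and 2 Dapa mice. Runx3, a factor of cytotoxic T cells, had one in 3 Ctrl, 4 Case and 3 Dapa mice. Cd3e had one in 3 Ctrl, 5 Case and 6 Dapa mice, in each within 1 kb of a start of Gm48719. Itgam, the integrin chain CD11b, had one in Case 3 and Dapa 11. The T cell coreceptor gene Cd4 had one in Case 5, Case 6 and Dapa 10, and Cd79b had one in Dapa 7 and Dapa 12. Ms4a1 had one in Ctrl 4 (percentile 0.344), Case 5 (19.3), Dapa 9 (75.9) and Dapa 11 (39.9).

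Csf2rb, the shared beta chain of the receptors for GM-CSF, IL-3 and IL-5, and Btla were 2 genes that the study had selected from these mice, so their values are no independent evidence. The window percentile of Csf2rb was 15.6, 45.4, 29.7, 30.0 and 17.1 in Ctrl, 8.59, 65.3, 48.3, 6.53, 30.2 and 35.9 in Case, and 44.6, 24.8, 44.6 and 5.25 in Dapa 7, 8, 10 and 11, with none in Dapa 9 and 12. In the complete lists all 5 Ctrl and all 6 Case mice had a summit and the groups overlapped. In the equal-length lists none of the 5 Ctrl mice had one, against 4 of 6 in Case and 2 of 6 in Dapa. The equal-length list took in 52.4% to 79.4% of the Ctrl lists, and the Ctrl summits of Csf2rb were among those left out. Over all 17 libraries, Csf2rb summits were spread over 11 regions, none of them in more than 5 libraries. Csf2rb lies next to its near-copy Csf2rb2, and 13.3% of the 50-base stretches of Csf2rb also occur in the Csf2rb2 locus, up to 73.5% in 1 summit region. The effect of such shared sequence on mapping was not tested. Btla had a window summit in Case 1 (16.9), Case 4 (39.5) and Dapa 12 (43.0) and in no Ctrl mouse.

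**Figure D5:**
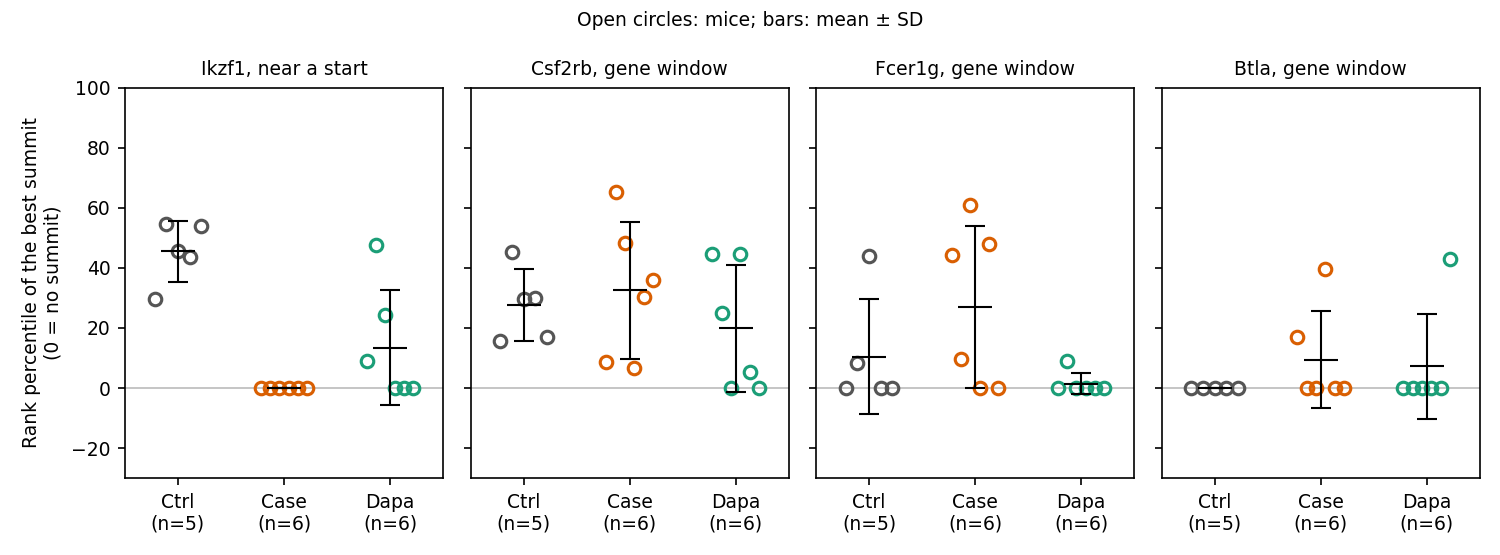
Rank percentile of the highest summit in each mouse, with 0 for none, near a start of Ikzf1 and in the gene windows of Csf2rb, Fcer1g and Btla. Open circles are mice, and bars are mean ± SD. For Ikzf1 all Ctrl circles lie between 29.5 and 54.7 and all Case circles at 0, and the other 3 genes overlap between groups.

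The comparison of Case with Ctrl addressed what the diabetic state and strain changed in these genes. No leukocyte gene passed an adjusted p of 0.05 by presence near a start or in the gene window (Fisher's exact test, 2-sided) or by rank percentile (exact permutation test, 2-sided), with Benjamini-Hochberg adjustment over all genes tested. Neither did any other gene, so the percentage called was 0.0% in each of these 3 fits. With 6 against 5 mice Fisher's exact test allows no p below 0.00217. With this many genes tested, no gene could pass the adjustment by presence on its own, so the lack of calls does not show a lack of change. Ikzf1 had the smallest p near a start. It was present in 0 of 6 Case and 4 of 5 Ctrl mice, at exact p = 0.0152, adjusted p = 0.147. In shorter equal-length lists the difference was 0. At an unadjusted p under 0.05 it was 1 of the 2 leukocyte genes tested there, with Lck, against 10.3% of all 2306 genes tested, of which 227 were lower in Case and 10 higher. Its window percentile was 46.3 ± 11.2 (SD, n = 5) in Ctrl and 19.2 ± 21.2 (SD, n = 6) in Case, lower by 27.2 on average, with an exact permutation p of 0.0390 and an adjusted p of 0.300. This difference was smaller at equal list length, where it was -9.44, with an exact permutation p of 0.416 and an adjusted p of 0.767. Over all genes the percentile was lower in Case for 71.4%, with a median difference of -4.38.

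In the gene window none of 8 leukocyte genes tested had an unadjusted p under 0.05 by presence, against 7.82% of 4297 genes. Csf2rb came closest, at 4 of 6 Case and 0 of 5 Ctrl mice, at exact p = 0.0606, adjusted p = 0.358. Fcer1g followed, at 4 of 6 against 1 of 5, with an exact p of 0.242. By percentile, 2 of 22 genes tested had an unadjusted p under 0.05, against 14.5% of 27639 genes, of which 3624 were lower in Case and 396 higher. They were Ikzf1 and Cd79a, the latter at 85.2 ± 7.37 (SD, n = 5) in Ctrl and 54.5 ± 33.7 (SD, n = 6) in Case, with an exact permutation p of 0.0476 and an adjusted p of 0.327. Case 2 had no Cd79a summit, and in 15 libraries a summit of Cd79a lay near a start of Rps19. Leaving out 1 mouse at a time gave exact permutation p-values from 0.0159 to 0.0857 for Ikzf1 and from 0.0159 to 0.0952 for Cd79a. In the equal-length lists the Cd79a difference was -28.2, with an exact permutation p of 0.0563.

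As a list, leukocyte genes near a start were more often present in Case, and Case 3 carried this. The share present was 9.19% ± 4.10 (SD, n = 5) in Ctrl and 14.0% ± 15.9 (SD, n = 6) in Case, a difference of 4.77 points that is smaller than the pooled SD of 12.2. Without Case 3 the Case share was 7.57% ± 2.96 (SD, n = 5), and the difference turned to -1.62 points. Of the 20 genes with a summit in either group, 16 were higher and 3 lower in Case, with a median difference of 16.7 points, which is 1 mouse of 6. Among all genes 22.1% were higher and 32.9% lower, with a median of 0. Without Case 3 and Dapa 8, 3 leukocyte genes were higher and 3 lower of 8, with a median of 0, against 16.5% and 28.0% of all genes.

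In the gene window the shares were 34.1% ± 5.60 (SD, n = 5) in Ctrl and 42.3% ± 11.2 (SD, n = 6) in Case, or 37.8% ± 1.91 (SD, n = 5) without Case 3. With summits of a score of at least 5 the difference turned to -1.44 points, and near a start it vanished. Without summits near another gene's start the window share was 22.2% ± 4.01 (SD, n = 5) in Ctrl. In Case it was 32.9% ± 15.7 (SD, n = 6), or 26.5% ± 1.21 (SD, n = 5) without Case 3. By lineage near a start, myeloid genes went from 0% in Ctrl to 10.7% ± 20.1 (SD, n = 6) in Case and to 2.86% ± 6.39 (SD, n = 5) without Case 3. Pan-leukocyte genes were at 23.1% ± 9.42 (SD, n = 5) in Ctrl and 24.4% ± 18.5 (SD, n = 6) in Case, or 16.9% ± 3.44 (SD, n = 5) without Case 3. T cell genes were at 6.67% ± 9.13 (SD, n = 5) and 8.33% ± 13.9 (SD, n = 6), or 3.33% ± 7.45 (SD, n = 5) without Case 3, and B cell genes at 0% in both. Each of these lineage differences is within the spread between mice, and none was tested. The p-values here are for single genes and set a difference between groups against the spread between mice.

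The comparison of Dapa with Case addressed what dapagliflozin changed in diabetic mice. No gene passed in any of the 3 fits (0.0% called each). Lcp1 had the smallest p near a start, found in 3 of the 6 treated and all 6 untreated mice, with an exact p of 0.182, which is the smallest that a gene seen in 9 of 12 mice allows. Few leukocyte genes could be tested by presence, 1 near a start (Coro1a) and 5 in the gene window, and 29 were tested by percentile. None of these had an unadjusted p under 0.05, against 1.29% of 1547 genes near a start, 1.09% of 2943 in the gene window and 3.2% of 27788 by percentile. The presence p-values of Lcp1 and Fcer1g are given as a description, since both genes were seen in too many or too few mice to enter the adjustment. Fcer1g came closest in the window, found in none of 6 treated and 4 of 6 untreated mice (exact p = 0.0606). Its window percentile was 27.1 ± 26.9 (SD, n = 6) in Case and 1.48 ± 3.62 (SD, n = 6) in Dapa, with an exact permutation p of 0.0606 and an adjusted p of 1, and in equal-length lists the difference was -15.6 at the same p. Vav1, a guanine nucleotide exchange factor of antigen receptor signalling, was at 86.6 ± 6.45 (SD, n = 6) in Case and 92.3 ± 4.78 (SD, n = 6) in Dapa, with an exact permutation p of 0.113.

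Near a start, 12.2% ± 6.56 (SD, n = 6) of leukocyte genes were present in Dapa, or 9.73% ± 3.08 (SD, n = 5) without Dapa 8. Of 23 genes with a summit in either group, 8 were higher and 11 lower in Dapa, with a median difference of 0, against 25.5% and 23.2% of all genes. The direction turned without Case 3 and Dapa 8, when 9 were higher and 3 lower of 14, against 22.4% and 21.9% of all genes. The difference in shares was -1.80 points, 4.59 points without Case 3 alone, and 2.25 points with all summits. In the gene window the Dapa share was 41.4% ± 4.73 (SD, n = 6), lower than in Case (difference -0.901 points) by less than the pooled SD of 8.57. Without Case 3 this difference was 3.60 points and without Dapa 12 it was 0.360 points. Csf2rb was found there in 2 of the 6 treated and 4 of the 6 untreated mice (exact p = 0.567), and Btla in 1 of 6 of each.

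The comparison of Dapa with Ctrl asked how far treated mice stood from wild type. Again no gene passed in any fit (0.0% called each). Near a start, Ikzf1 was present in 2 of 6 Dapa and 4 of 5 Ctrl mice, at exact p = 0.242, adjusted p = 0.570. Its window percentile was 25.7 ± 17.7 (SD, n = 6) in Dapa, lower than in Ctrl by 20.7 on average and, in equal-length lists, at a difference of -9.51 (exact permutation p = 0.299), with an exact permutation p of 0.0519 and an adjusted p of 0.400. Of the leukocyte genes, 3 could be tested near a start, 7 in the window and 27 by percentile. None of these had an unadjusted p under 0.05, against 8.7% of 2161 genes near a start, 6.07% of 3822 in the window and 12.3% of 27975 by percentile. Laptm5 was present near a start in 2 of 6 Dapa and 0 of 5 Ctrl mice, with an exact p of 0.455. In the window C1qa was present in 3 of 6 against 0 of 5, with an exact p of 0.182, and like Laptm5 near a start it was seen in too few mice to enter the adjustment. Itgb2 was present in 4 of 6 against 1 of 5, with an exact p of 0.242. Lck had the lower window percentile, at 39.0 ± 22.7 (SD, n = 5) in Ctrl and 8.69 ± 21.3 (SD, n = 6) in Dapa, with an exact permutation p of 0.108. In equal-length lists the Lck difference was -13.3, with an exact permutation p of 0.212.

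As a list, 11 leukocyte genes were higher and 4 lower in Dapa than in Ctrl near a start, of 16 with a summit, against 20.2% and 29.9% of all genes. Without Dapa 8, 8 were higher and 4 lower of 13, against 15.3% and 27.0% of all genes, and the difference in shares fell to 0.541 points. The differences in the share of leukocyte genes present were 2.97 points near a start and 7.39 points in the window, against pooled SDs of 5.60 and 5.14. Near a start it turned to -0.45 points with summits of a score of at least 5. In the window 18 genes were higher and 8 lower in Dapa of 33 with a summit, against 27.6% and 28.2% of all genes. The window difference was thus larger than 1 pooled SD, and it was 0.811 points in shorter equal-length lists and -1.44 points with summits of a score of at least 5. Without summits near another gene's start it was 10.3 points, from 22.2% ± 4.01 (SD, n = 5) in Ctrl to 32.4% ± 5.41 (SD, n = 6) in Dapa. Case was then at 32.9% ± 15.7 (SD, n = 6), or 26.5% ± 1.21 (SD, n = 5) without Case 3. Over all 55413 genes the counts in that form ran from 14092 to 14419 in Ctrl and from 13989 to 14622 in Dapa. Both db/db comparisons with Ctrl use the same 5 Ctrl mice.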

How the data were processed

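ATAC-seq libraries were made from kidney cells of 17 mice, and groups were taken from the sample labels. The authors aligned the reads to mm10 with Bowtie2 in an ENCODE-style pipeline, removed duplicates and blacklisted regions, corrected for the Tn5 insertion offset and called peaks with MACS2 for each mouse separately. Versions of Bowtie2 and MACS2 were not given in the sources used here. In the deposited files every summit has a position and a −log10 value from MACS2, and no source says whether it comes from a p-value or a q-value. Scores ran from 2.00 to 381 and depend on depth, which is unknown, so no counting intervals are given and scores were used only as ranks within a list.

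Summits on 19 autosomes, X and Y were matched to 141730 transcripts of 55413 genes in GENCODE M21, whose build holds every summit position. In 136 pairwise checks no list repeated another, with a highest overlap of 0.797% of positions. Presence was tested by Fisher's exact test over the genes whose number of libraries allows p under 0.05, and percentile, with 0 for no summit, by an exact permutation test over genes with a summit in at least 3 libraries. P-values were adjusted by Benjamini-Hochberg over all of these genes. Summits of a gene were joined to a region where the stretches of 250 bases to each side of them met or overlapped. Analyses ran in Python 3.11.15 with scipy 1.17.1 and were tested on simulated data.

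The 37 genes, the lineage and marker lists and the libraries left out together were chosen with earlier results of these data known. Genes given in full were Csf2rb, Btla, Ptprc, up to 4 genes per lineage with a summit near a start in the most libraries, and the 2 with the smallest p per comparison and window. The labels do not say whether mice shared a litter or a preparation day. Alternatives were all summits, shorter lists, a score of at least 5, start distances of 500 bases and 3 kb, starts of protein-coding transcripts, a window from 2 kb upstream, no summits near another gene's start, other sets of genes tested, each mouse left out, Case 3 and Dapa 8 left out together, and same-numbered Ctrl and Case mice as pairs.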

Additional observations from a re-analysis of the deposited data

Results flagged for a closer look

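A library was picked out where its count stood apart from the other mice of its group by Dixon's 95% criterion, in 41 groups of counts. Chance picks out about 1 in 20 groups, and counts with many ties are picked out more easily.

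Case 3 stood above the other 5 Case mice in 6 counts. It had 17 of the 37 leukocyte genes with a summit near a start, against 2 to 4, and 24 in the gene window, against 13 to 15, in equal-length lists. With all summits the window count of Case 5 was higher, at 26. For the 13 pan-leukocyte genes it had 8 near a start, against 2 to 3, and 10 in the window, against 5 to 6. It had 7 of 14 myeloid genes near a start, against 0 to 2. For the 52 leukocyte genes outside the list it had 13, against 2 to 6.

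Dapa 8 had 3 of 14 myeloid genes near a start, against 0 to 1 in the other Dapa mice, and 2 of 12 endothelium genes, against 1. Dapa 10 had 3 of 6 T cell genes in the window, against 1, and 20 of 23 kidney epithelium genes in the window, against 17 to 18.

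Among Ctrl mice, Ctrl 4 had 4 of 14 myeloid genes in the window, against 5 in every other. Ctrl 3 had 17 of 23 kidney epithelium genes near a start, against 13 to 14, and Ctrl 5 had 2 of 12 endothelium genes, against 1. These rest on small differences in whole numbers.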

How the results depend on the processing

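No gene was called at an adjusted p of 0.05 in any of 168 further fits. With so few mice the smallest p that can be reached is large for the number of genes tested. The lack of calls therefore does not show that no gene changed. Of 434 values for named genes, 4 turned sign, and some fell to no difference, among them Csf2rb in the window in Case against Ctrl with all summits and Ikzf1 near a start with shorter equal-length lists. With a score of at least 5, the Csf2rb window difference was -3.33 points in Case against Ctrl and -3.33 in Dapa against Ctrl. With all summits it was -33.3 points in Dapa against Ctrl. With shorter equal-length lists the Itgb2 window difference in Dapa against Ctrl was -3.33 points. Of 109 values for the share of leukocyte genes present, 3 were classed as moved, all in the window. Other turns of sign, such as those in Dapa against Case or with a mouse left out, are not among these 3. With a score of at least 5 the window share differed by -1.44 points in Case against Ctrl and by -1.44 in Dapa against Ctrl. With shorter equal-length lists it differed by 0.811 in Dapa against Ctrl. The cause was not tested. In the window Dapa against Case differed by 2.25 points with all summits and by 0.45 with a window from 2 kb upstream, and these turns of sign were within the spread between mice.

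Leaving out 1 mouse at a time, the share near a start differed by -1.62 to 6.49 points in Case against Ctrl, where only leaving out Case 3 turned the sign, and by -4.23 to 4.59 in Dapa against Case. Read depth is unknown, so a missing summit does not show closed chromatin.

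With same-numbered Ctrl and Case mice as a replicate block, the share near a start differed by 6.49 points and in the window by 9.19. The 5 pairs allow no p below 0.0625. Correlations of same-numbered mice were -0.00171, -0.0107, -0.0523, 0.0181 and -0.0886. No pairing by number was seen, which does not exclude one.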
